A study of Rattus norvegicus with 2 samples.

Results

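Aquaporins are membrane channels for water, and 6 rat genes of the family were followed here: Aqp1, Aqp3, Aqp4, Aqp5, Aqp7 and Aqp9. They were chosen by symbol, with results of these arrays already known, so all of their values are a description and carry no test. The platform annotation ties 9 probe sets to exactly 1 of these 6 genes, among 14217 genes measured by such probe sets. The tissue was esophagus of male Sprague-Dawley rats, an outbred laboratory strain, bought at 5 to 6 weeks of age. One group received OSU-HDAC42, an inhibitor of histone deacetylases, by gavage in 7 doses of 50 mg/kg (350 mg/kg in all), and the other group received the vehicle by the same route. The esophagus was removed on day 15, with 24 hours between the last gavage and sampling, and its total RNA was hybridised as biotin-labelled cRNA to Affymetrix Rat Genome 230 2.0 arrays. Each of the 2 groups has 1 array. The labels do not say whether it held RNA of 1 rat or of several, nor which layers of the esophagus were taken.

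Aquaporins sit in the membrane as tetramers in which each subunit forms a pore of its own. Orthodox members such as Aqp1, Aqp4 and Aqp5 pass mainly water, whereas the aquaglyceroporins Aqp3, Aqp7 and Aqp9 also pass glycerol. Aqp1 is known from capillary endothelium and red blood cells, Aqp3 from the basal and lower suprabasal layers of stratified epithelia, and Aqp4 from the surface membrane of fast skeletal muscle fibres, from astrocytes and from gastric parietal cells. Aqp5 belongs to secretory glands, Aqp7 to adipocytes and Aqp9 to hepatocytes and leukocytes. The rat esophagus has a stratified squamous lining and a coat of skeletal muscle.

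All levels are linear intensities of probe sets. Differences are log2 intensity in the OSU-HDAC42 sample minus log2 intensity in the vehicle sample, after intensities under 16 were raised to 16. A gene is said to be at background when both arrays lie under the expression floor, the median of all 31042 non-control probe sets, at an intensity of 49.1. The deposited table holds no detection calls. With 1 array per group, no value has an error between rats and there is no replicate check. The only yardstick was the disagreement of probe sets that measure the same gene, whose differences lay apart by an SD of 0.41 (3643 pairs from 2126 genes), which covers probe noise alone. Median intensities were 48.4 and 49.1 for the OSU-HDAC42 and vehicle arrays, and the 3' over 5' ratio, a sign of RNA integrity, was 6.29 against 7.76 for beta-actin and 2.09 against 2.32 for GAPDH. For both genes the 3' probe set was thus much brighter than the 5' probe set on both arrays, more so on the vehicle array.

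Of the 6 aquaporins, 4 reached the floor on at least 1 array and 2, Aqp5 and Aqp7, were at background. Aqp4 was lower in the OSU-HDAC42 sample, Aqp1 and Aqp3 were somewhat higher, and Aqp9 had the same value on both arrays. Only Aqp4 among the members passed 2-fold. Among the 9560 genes that reached the floor, 5.05% passed 2-fold in either direction (1.88% upward and 3.17% downward). The members were chosen with these differences in view, so nothing is read from their share. The median difference of the 6 members was 0.061 and that of all genes 0.

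**Figure D1:**
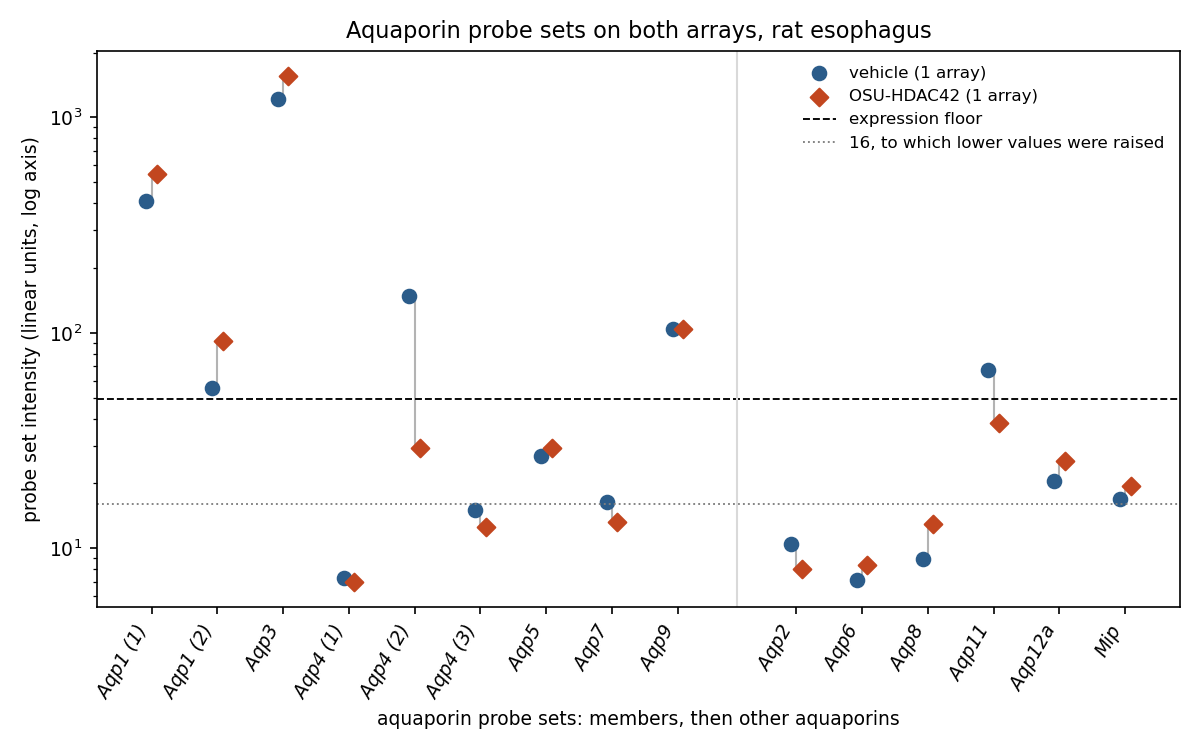
Intensity (log axis) of each aquaporin probe set on the vehicle array (circles) and the OSU-HDAC42 array (diamonds), 1 array each; numbers in brackets separate probe sets of 1 gene. Only the second Aqp4 probe set spans a wide gap, from 149 to 29.1 across the dashed floor at 49.1, while the other Aqp4 probe sets lie under the dotted line at 16.

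Aqp4 was measured by 3 probe sets, and the difference rests on 1 of them. Probe set 1372190_at had an intensity of 29.1 in the OSU-HDAC42 sample and 149 in the vehicle sample, which is 5.12-fold lower (-2.36 on the log2 scale). The vehicle value lies above the floor and the OSU-HDAC42 value below it, but above 16. At 29.1 it is no higher than that of Aqp5, a gene at background, and cannot be told from background either. The size of 5.12-fold, and any rank taken from it, is therefore uncertain. Probe set 1368981_at stood at 6.96 and 7.31, and probe set 1387397_at at 12.6 and 15.1, in the same order. All 4 of these values are under 16, too low for a difference to be measured. Before low values were raised, they differed by -0.069 and -0.26. Taken as the median over its 3 probe sets, the difference of Aqp4 was 0, and with the floor at the 75th percentile of probe sets Aqp4 was no longer counted. Among genes counted as 2-fold, 151 had several probe sets. Of these, 43 (28.5%) had every other probe set under 16 on both arrays, and 48 had another probe set above the floor. The same shares over all genes were not computed, so these counts say nothing on how far the Aqp4 value can be relied on. The sources used here do not say which stretch of the transcript each probe set covers.

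On probe set 1372190_at, Aqp4 had the fourth lowest difference of the 9560 genes above the floor, and 10 of these genes, Aqp4 among them, were at least as far from 0 in either direction. The spread was wide at such dim intensities, with an SD of 0.60 over the 1412 genes within 0.5 of the mean log2 intensity of Aqp4. Genes nearest to Aqp4 in their log2 values over both arrays, which are only 2 points, were sought without LOC, RGD, predicted or mapped symbols. The first was Jsrp1, a protein of the junctional sarcoplasmic reticulum, at 33.8 and 129 in the OSU-HDAC42 and vehicle samples. Next came the mismatch repair gene Msh3 at 35.5 and 133, and Dhrs7c, an enzyme of the sarcoplasmic reticulum, at 27.9 and 109.

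**Figure D2:**
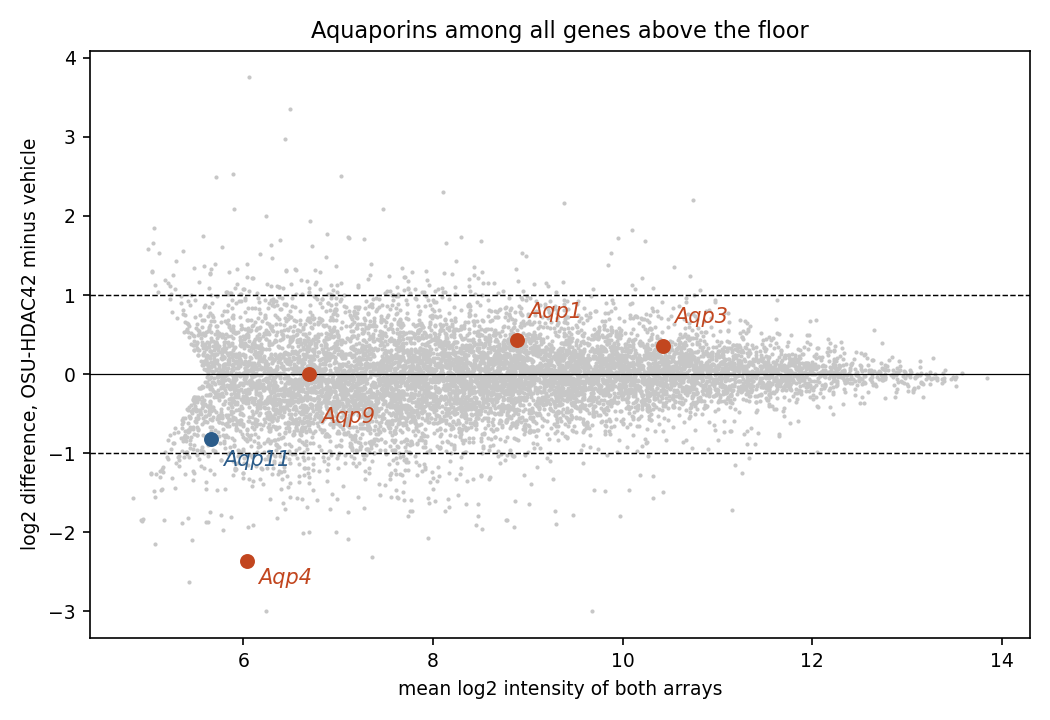
Log2 difference (OSU-HDAC42 minus vehicle) against the mean log2 intensity of both arrays for the 9560 genes above the floor (grey), with dashed lines at 2-fold. Aqp4 at -2.36 lies at the lower edge of the cloud, Aqp1 at 0.43 and Aqp3 at 0.36 lie within it, Aqp9 lies at 0, and Aqp11, an aquaporin that is no member, lies at -0.82.

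RefSeq gives 2 start sites for rat Aqp4, and the 250 bases before each are printed because Aqp4 is the aquaporin with the large difference and because the transcript that each of its probe sets measures is not known here. They are from the GRCr8 assembly, 5′ to 3′, and capitals mark the GC box, GGGCGG on either strand, and the TATA box, TATAAA on either strand.
Aqp4, upstream start, chr18:6798843-6799092 on the minus strand: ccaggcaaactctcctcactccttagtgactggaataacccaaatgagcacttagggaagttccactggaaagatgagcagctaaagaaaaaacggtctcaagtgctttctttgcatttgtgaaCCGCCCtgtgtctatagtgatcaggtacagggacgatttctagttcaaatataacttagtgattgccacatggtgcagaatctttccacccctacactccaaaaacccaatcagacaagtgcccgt
Aqp4, downstream start, chr18:6797927-6798176 on the minus strand: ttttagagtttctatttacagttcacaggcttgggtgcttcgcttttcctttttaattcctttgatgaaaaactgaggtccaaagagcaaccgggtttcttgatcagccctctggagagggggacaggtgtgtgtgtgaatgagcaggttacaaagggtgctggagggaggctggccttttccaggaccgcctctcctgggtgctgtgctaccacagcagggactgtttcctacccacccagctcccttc
The window of the upstream start holds 1 GC box, at -126 to -121 from the start site, and no TATAAA. It also holds 5 E-boxes, CANNTG, the general motif of the basic helix-loop-helix family of factors. The window of the downstream start holds 1 E-box and neither of the other motifs. The windows of Aqp3, Aqp5 and Aqp9 hold 2 E-boxes each, and that of Aqp1 holds none. Among all 33469 RefSeq windows of this length, 30.5% hold a GC box, 12.9% a TATAAA and 65.5% at least 1 E-box. The share with as many as 5 E-boxes was not computed. A match is only a match of letters.

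In muscle, Aqp4 is held at the fibre membrane by the dystrophin complex, through alpha-syntrophin, which is not measured here. Of 16 genes listed for this complex, 11 were measured and 9 reached the floor. Of those 9, 4 were higher and 5 lower, and none was 2-fold apart. The median over the 11 was 0.00, as it was for all genes. Dtna, encoding alpha-dystrobrevin, stood at 229 against 119 (0.95), Dtnb, its beta homologue, at 271 against 403 (-0.57), Dag1, the dystroglycan that spans the membrane, at 2172 against 1558 (0.48), and the sarcoglycan Sgcb at 687 against 535 (0.36). Dystrophin itself, Dmd, was at background with 19.5 and 17.2.

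Markers of fast muscle fibres were lower together with Aqp4. Each of the 13 fast-fibre genes reached the floor, and each was lower in the OSU-HDAC42 sample, 7 of them at least 2-fold, with a median of -1.14. Of all genes above the floor, 52.8% were lower and 3.17% at least 2-fold lower. The smallest fast-fibre differences were those of Pvalb, at 823 against 852 (-0.051), and the myosin Myh1, at 3017 against 3700 (-0.29). Both are smaller than the SD of 0.41 between probe sets of 1 gene. The summed intensity of the 13 genes was 15848 against 29316. The largest differences were those of Actn3, the alpha-actinin of fast fibres, at 66.6 against 283 (-2.09), Atp2a1, their calcium pump, at 343 against 1138 (-1.73), the fast myosin Myh2 at 67.0 against 218 (-1.70) and the calcium store protein Casq1 at 86.1 against 278 (-1.69). Of 10 slow-fibre genes, 7 reached the floor. Of these, 3 were higher and 4 lower, 2 of them by 2-fold or more, with a median of -0.12. Over all 10 slow-fibre genes the median was -0.031 and the summed intensity 11516 against 14218. Most of that sum came from Atp2a2, at 4976 and 4942, and Tpm3, at 4805 and 5612. The slow myosin Myh7, at 15.3 and 16.8, was among the 3 at background. Among the 7 above the floor, Myoz2, a Z-disc protein, differed by -1.47 and the light chain Myl3 by -1.27. The slow troponin Tnnt1 differed by 0.62 and the tropomyosin Tpm3 by -0.22. The part of muscle content in the Aqp4 difference was not tested. In bulk tissue, fewer fibres and less RNA per fibre cannot be told apart.

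Defining markers of the other cells known for Aqp4 were near the bottom of the scale. All 9 gastric mucosa markers were at background, 7 of them under 16 on both arrays, including the parietal cell pump subunits Atp4a at 12.3 and 13.6 and Atp4b at 8.90 and 7.08. The list summed to 128 and 132 in the OSU-HDAC42 and vehicle samples. All 4 measured markers of glia were at background too, with the astrocyte filament gene Gfap at 10.5 and 12.6 and the glial potassium channel Kcnj10 at 8.20 and 8.85, and they summed to 54.1 and 65.7.

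Aqp1, the channel of capillaries and red cells, was higher in the OSU-HDAC42 sample on both of its probe sets. Probe set 1369625_at stood at 549 against 408, 1.35-fold higher (0.43). Probe set 1387651_at stood at 91.9 against 55.7, 1.65-fold higher (0.72). All 4 values lie above the floor, and the gap of 0.29 between these differences is smaller than the SD of 0.41 between probe sets of 1 gene. A difference as far from 0 as that of the brighter probe set was found in 29.9% of genes above the floor, so its size is common on these arrays. The SD among 1653 genes of similar intensity was 0.44.

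Most markers of the cells known for Aqp1 that reached the floor were lower, not higher. All 12 endothelial genes measured reached the floor. Of them, 9 were lower and 3 higher, beside 52.8% lower and 46.7% higher of all genes above the floor. The endothelial median was -0.60, none of the 12 was 2-fold apart, and their summed intensity was 3599 against 3888. The von Willebrand factor gene Vwf differed by -0.95, the receptor partner Ramp2 by -0.90, the matrix protein Mmrn2 by -0.83 and the vessel factor Egfl7 by -0.79. Among those that were higher were the adhesion molecule Pecam1 at 1393 against 1119 (0.32) and the VEGF receptor Kdr at 657 against 520 (0.34). Of 5 measured erythroid genes, Hbb, a beta globin, was above the floor and stood at 324 against 848 (-1.39), and the other 4 were at background, with Slc4a1 and Epb42 under 16 on both arrays. The list summed to 381 against 919. The 3 probe sets shared by the near-identical alpha globin genes Hba-a1 and Hba-a2 differed by -1.29, -1.27 and -1.20. Their part in the Aqp1 value was not tested.

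Aqp3, the aquaglyceroporin of stratified epithelium, was measured by 1 probe set, at 1557 in the OSU-HDAC42 sample and 1212 in the vehicle sample, 1.28-fold higher (0.36). A difference at least as far from 0 was found in 36.7% of genes above the floor, and the SD among 1202 genes of similar intensity was 0.35. The 250 bases before the start sites of Aqp1 and Aqp3 are shown as those of the 2 members above the floor that were higher, in the same notation as for Aqp4.
Aqp1, chr4:85812534-85812783 on the plus strand: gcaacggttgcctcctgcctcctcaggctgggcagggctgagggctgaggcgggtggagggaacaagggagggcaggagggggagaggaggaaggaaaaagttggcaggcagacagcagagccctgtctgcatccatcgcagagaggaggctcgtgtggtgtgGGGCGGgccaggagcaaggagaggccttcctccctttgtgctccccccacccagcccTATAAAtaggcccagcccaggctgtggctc
Aqp3, chr5:61040684-61040933 on the minus strand: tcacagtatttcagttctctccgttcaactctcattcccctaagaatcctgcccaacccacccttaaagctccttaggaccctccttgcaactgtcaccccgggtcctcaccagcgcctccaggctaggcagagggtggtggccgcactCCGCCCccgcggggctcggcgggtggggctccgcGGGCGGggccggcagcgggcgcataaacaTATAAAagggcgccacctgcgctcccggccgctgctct
Each holds a TATAAA near the start site, at -30 to -25 in Aqp1 and at -38 to -33 in Aqp3. Neither Aqp4 window has one. Aqp1 has 1 GC box and Aqp3 has 2, both windows are 65.2% G or C against 44.8% and 51.6% in the Aqp4 windows, and the median of all windows is 51.2%. The window of Aqp9 has neither a TATAAA nor a GC box and is 54% G or C. That of Aqp5 has no TATAAA, 2 GC boxes and 83.2% G or C. Nothing about the direction of a difference is read from so few windows.

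Markers of the squamous lining, where Aqp3 is known to sit, had list medians close to 0, with single genes far from it. All 9 basal genes reached the floor. There were 2 higher and 7 lower ones, 1 of them by 2-fold or more, with a median of -0.077 and summed intensities of 30723 and 31536. All 12 suprabasal genes reached it too, 4 being higher, 2 of them by 2-fold or more, and 8 lower, with a median of -0.056 and sums of 59770 and 61970. The keratins of the basal layer Krt5 and Krt14 differed by -0.077 and 0.063. Of the basal genes, the hemidesmosome integrin Itgb4 stood at 171 against 416 (-1.28), while the integrin Itga3 differed by -0.62, the membrane glycoprotein Pdpn by 0.58 and the hemidesmosome collagen Col17a1 by -0.46. Of the suprabasal genes, the envelope precursor Sprr1b stood at 3688 against 799 (2.21) and the keratin Krt10 at 345 against 168 (1.04), while the envelope proteins Evpl and Ivl differed by -0.69 and 0.60.

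Aqp9, an aquaglyceroporin of liver and leukocytes, had an intensity of 103.7 on both arrays, above the floor, equal to the last deposited digit. Equal pairs were found for 963 of the non-control probe sets (3.10%), but for only 111 of the 16128 that reached the floor (0.688%). Why these pairs are equal is not given in the sources used here. Most measured markers of hepatocytes and neutrophils were at background, and markers of other leukocytes were not listed for Aqp9. Of 7 hepatocyte markers, 6 were at background, with albumin, Alb, at 11.3 and 14.0 and list sums of 133 and 143. Of 8 neutrophil markers listed, 5 were measured and 4 of these were at background, with the receptor Csf3r at 7.04 and 8.19 and list sums of 126 and 177. The exceptions were Serpina1, an inhibitor of elastase, at 36.4 against 49.3 and the chemokine receptor Cxcr2 at 82.8 against 125.

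Aqp5 and Aqp7 were at background. Aqp5, the channel of gland cells, stood at 29.1 and 26.7 in the OSU-HDAC42 and vehicle samples. Of 11 measured markers of glands and simple epithelia, 10 were at background, among them the mucin Muc5b at 16.1 and 14.2 and the keratin Krt18 at 14.9 and 12.7, and the list summed to 256 and 272. The exception was the claudin Cldn10 at 62.2 against 80.7 (-0.38). Aqp7, the glycerol channel of fat cells, stood at 13.2 and 16.5. Of 9 measured adipocyte markers, 7 were at background, with the defining genes Adipoq at 14.3 and 14.6, Plin1 at 9.25 on both arrays and Lep at 8.90 and 6.79. The list summed to 806 and 750, most of it from Cidea, a lipid droplet protein, at 637 and 529 (0.27). Fabp4, a fatty acid carrier of fat cells and capillaries, was the other one above the floor, at 61.2 against 99.4 (-0.70). At such intensities neither a level nor a difference of Aqp5 or Aqp7 can be told from background.

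The family's other 6 measured genes gave 1 value above the floor. Aqp11, an intracellular channel of the endoplasmic reticulum, stood at 38.1 against 67.4 (-0.82), short of 2-fold, and 8.83% of genes above the floor were at least as far from 0. Aqp2, the vasopressin-regulated channel of the kidney collecting duct, Aqp6 and Aqp8 were under 16 on both arrays. Aqp12a at 25.5 and 20.6 and Mip, the channel of the eye lens, at 19.6 and 17.0 were at background. Aqp5 lies between Aqp2 and Aqp6 on chromosome 7 in the RefSeq order of genes, and all of these neighbours were at background. Aqp3 and Aqp7 are adjacent protein-coding genes on chromosome 5, with Aqp3 well above the floor and Aqp7 at background. Nol6, on the other side of Aqp3, stood at 272 and 276 (-0.023).

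Glycerol that enters through aquaglyceroporins is phosphorylated by glycerol kinase. All 13 genes listed for glycerol handling were measured and 11 reached the floor, 6 of these being higher and 5 lower, with 1 at least 2-fold lower. Their median was -0.11 over all 13 and 0.28 over those above the floor. Gpd1, the cytosolic glycerol phosphate dehydrogenase, stood at 28.9 against 68.8 (-1.25). Dgat1, which makes triglyceride, differed by 0.62, the glycerol kinase Gk by 0.62, at 145 against 94.6, and the lipase Pnpla2 by 0.45. Of 13 genes of cell volume and osmolytes, 11 were measured and 10 reached the floor. The latter were higher in 7 cases and lower in 3, none 2-fold apart, with a median of 0.065 over these 10 and 0.099 over all 11. Slc6a6, the taurine transporter, stood at 407 against 775 (-0.93), Nfat5, the transcription factor of the response to high tonicity, at 837 against 530 (0.66), the potassium chloride cotransporter Slc12a7 at 213 against 130 (0.71), and the aldose reductase Akr1b1 at 308 against 242 (0.35).

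**Figure D3:**
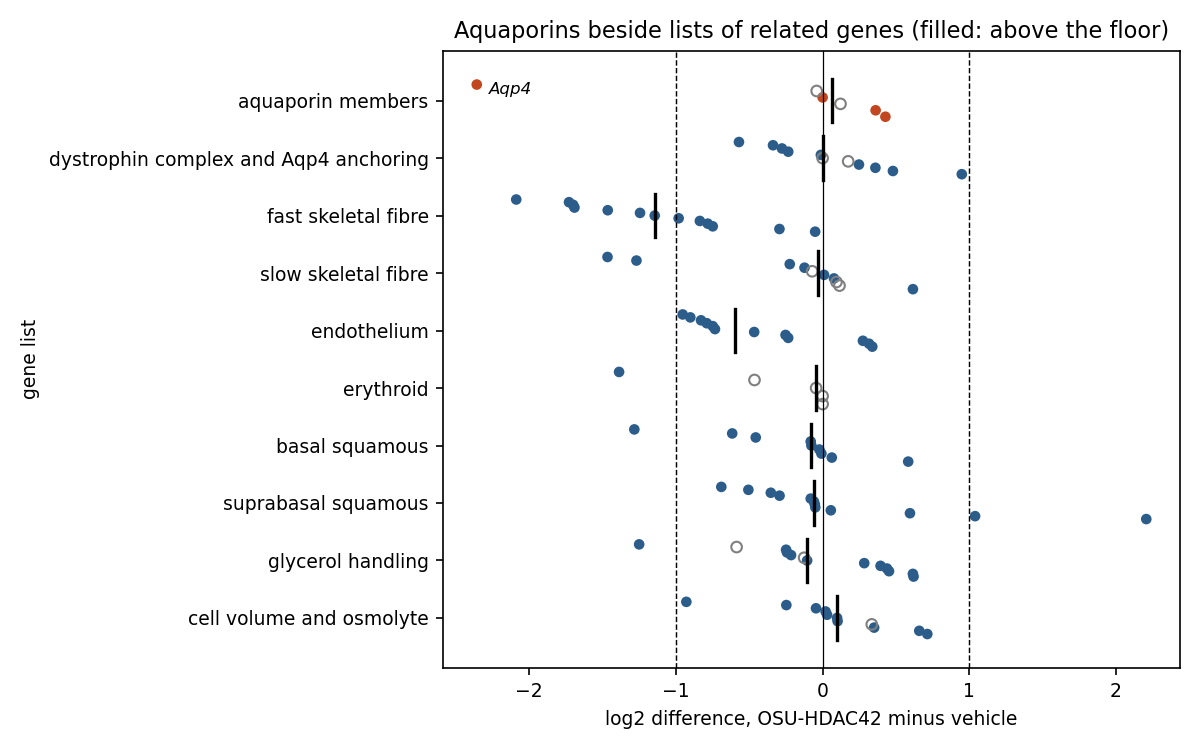
Log2 difference (OSU-HDAC42 minus vehicle) of each measured gene of the aquaporin members and of lists of related genes, with filled points above the floor, open points at background, black bars at list medians and dashed lines at 2-fold. All 13 fast-fibre genes lie left of 0, where Aqp4 lies as well at -2.36, and the other aquaporin members lie between -0.040 and 0.43.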

How the data were processed

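Probe set intensities of esophageal RNA were compared between 1 OSU-HDAC42 array and 1 vehicle array. The deposited intensity values are on a linear scale, a unit read from the values. Per the submitters' processing notes the authors used GCOS and RMA, without a stated role or version. How the arrays were scaled to each other is not given in the sources used here. The labels name Trizol for RNA extraction and the series design text a column kit.

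From these values, 57 control probe sets were left out, 16 was set as the lowest intensity and values were put on the log2 scale, without further normalization. This limit applied to 28.4% (OSU-HDAC42) and 29.2% (vehicle) of probe sets and understates differences of dim genes. Of 31042 probe sets, 20826 have 1 gene symbol in the platform annotation, 436 several and 9780 none, and probe sets with 1 symbol were used for genes. Each gene is represented by its probe set with the highest mean. List symbols were matched directly or through a RefSeq synonym of the same gene ID. The number of arrays limits the precision, so there is no test. The members and gene lists were chosen with earlier results of these data known. All members and other aquaporins are named, and of each list up to 4 genes above the floor with the largest differences, plus defining markers at background. The genes Krt5, Krt14, Krt18, Pecam1, Kdr, Muc5b, Csf3r, Alb, Myh1, Pvalb, Atp2a2 and Nol6 were added after their values were seen, as marker or neighbour genes. Alternatives were other scalings, raised values, probe set choices, thresholds and floors. The calculation was tested on simulated data. Python 3.11.15, numpy 2.4.6, pandas 2.3.3 and statsmodels 0.14.6 were used. RefSeq promoter windows were found for 5 of the 6 members.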

Additional observations from a re-analysis of the deposited data

How the results depend on the processing

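Under centred, quantile-normalized or lowess-corrected arrays, Aqp4 ran from -2.36 to -2.34, Aqp1 from 0.40 to 0.45, Aqp3 from 0.33 to 0.38 and Aqp9 from 0.018 to 0.022. The median of all genes stayed within 0.01 of 0, but it is held there by genes raised to 16 on both arrays. Without rescaling, the median over genes above the floor was -0.027. Of 48 member differences over all alternatives, many could not move. No member has a probe set marked as shared between transcripts, the kind left out in an alternative. Raising low values leaves the bright Aqp1, Aqp3 and Aqp9 as they are. Aqp3, Aqp5, Aqp7 and Aqp9 have no other probe set over which to take a median. In all, 46 differences moved by less than the SD of 0.29 per probe set. The exceptions were both Aqp4: the median over its probe sets was 0, and -0.26 with values not raised, an alternative chosen after seeing the data. By construction, since its other probe sets lie under 16, no aquaporin member was then counted as 2-fold (0), and none was (0) with the floor at the 75th percentile. That floor gave 75 genes higher and 119 lower. The threshold gave 725 higher and 1042 lower at 1.5-fold, and 31 and 57 at 3-fold, against 180 and 303.

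Limited to genes above the floor, list medians moved to -0.82 for other aquaporins, 0.28 for glycerol handling, -1.39 for erythroid, -0.38 for gland, -0.59 for neutrophil and -0.44 for hepatocyte genes, because genes at background were left out. Apart from glycerol handling, with 11 genes above the floor, each of these values is that of 1 gene and no longer a list median. The single genes are Aqp11, Hbb, Cldn10, Cxcr2 and Serpina1. The other 60 list values moved less. For 2320 of 14217 genes both arrays were under 16, so dim signal limits what can be seen. No paired analysis was possible because there was only 1 array in each group.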
